A study of Homo sapiens with 40 samples.

Results

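The comparison concerned a pair of clonal lines of H1299 that carried the same genotype label, MYO10 knockout. H1299 is an established line of human lung cancer cells of the non-small cell type. Clone 98 and clone 99 each contributed 4 cultures, labelled as biological replicates, so 8 of the 40 libraries of the series were compared, chosen by the clone number in their titles. All genes were included. The labels give CRISPR-Cas9 editing for both clones, and the title of the series places the knockouts in leader cells, which lead groups of cells that invade together. The other lines served as a scale for single genes. They were clone 84, labelled a MYO10 knockdown by genotype but a knockout by title, JAG1 knockout clones 35 and 72, clones 38 and 75, edited but wild-type for MYO10 and JAG1, and the unedited leader, follower and parental lines, each with 4 cultures. The guide, the edited position and the passage of the clones are not given in the sources used here. Each clone is 1 line, so a difference between them is a difference between these lines. The p-values set that difference against the spread of cultures within lines, estimated over all 40 libraries. They do not take in the spread among clones of one genotype.

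MYO10 encodes myosin-X, an actin motor that moves to the tips of filopodia, the thin protrusions with which cells probe their surroundings. Clones are grown out from single cells, and lines of one genotype can differ in what the founding cells already expressed, in chromosome content and in genes silenced or activated afterwards. Tumour cells with mesenchymal traits commonly express N-cadherin, the product of CDH2, where epithelial cells express E-cadherin. Both proteins join neighbouring cells through catenins.

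Levels are given in CPM, counts scaled to a common library total. Library totals lay between 41721854 and 43683804 counts in the 8 cultures, and between 40038816 and 44013445 in all 40. Over the genes tested, the Spearman coefficient was 0.990 or more between cultures of a clone and 0.971 to 0.978 between cultures of different clones. The first principal component of the 8 cultures held 61.7% of their variance and the second 9.35%. The H1299 identity genes were present in both clones. Vimentin, VIM, had 1897 ± 226 CPM in clone 98 against 1696 ± 69.4 in clone 99 (means ± SD, n = 4 each, here and below). Keratin KRT18 had 519 ± 52.9 CPM in clone 98 against 450 ± 137 in clone 99. Of markers of other cells, 0 of 4 tested immune genes (of 14) and 0 of 3 tested lung epithelial genes (of 13) were called by edgeR. At an unadjusted p under 0.05 edgeR had 2 and 1, and DESeq2 called 0 in either list. Among all genes tested 9.55% were called by the rule given below, so 0 calls among so few genes say little. The immune list had 1 lower call without replicate 2 of clone 98 or replicate 3 or 4 of clone 99. The lung list had 1 without replicate 3 of clone 98 or replicate 4 of clone 99. Their counts summed to 54.1 to 75.6 CPM in clone 98 and 59.1 to 101 CPM in clone 99 for the immune list, and to 0.500 to 0.985 CPM in clone 98 and 0.752 to 1.35 CPM in clone 99 for the lung list. The summed levels overlapped between the clones. Of 7 tested endothelial markers (of 10) 1 was called higher, ESAM, and lost without replicate 4 of clone 99 (0.99). The list summed to 46.8 to 54.4 CPM in clone 98 and 43.4 to 51.4 CPM in clone 99. Of 2 tested fibroblast markers (of 10) 1, the collagen chain COL1A1, was higher, and the list summed to 1.65 to 3.21 CPM in clone 98 and 0.615 to 1.57 CPM in clone 99. The part of other cells in the results was not tested. LDHA had 0 to 3 counts and ZYX 0 to 10 in every library, and both genes are usually abundant in culture, so a level near 0 does not show that no transcript was made.

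MYO10 itself was low in both clones and did not pass the test between them. It had 63.02, 55.4, 67.8 and 67.6 CPM in clone 98, against 47.6, 49.1, 52.2 and 59.05 CPM in clone 99. The log2 fold change of clone 98 over clone 99 was 0.29 ± 0.15, adjusted p = 0.12 (edgeR quasi-likelihood test, used for every adjusted p below). All 4 cultures of clone 98 lay above the 3 lowest of clone 99, and the highest culture of clone 99 overlapped them. The means of 63.4 CPM in clone 98 and 52 CPM in clone 99 compare with 490.5 and 441 CPM in wild-type clones 38 and 75 and 645 CPM in unedited leaders. The count covers all reads assigned to the gene and does not show whether they hold the edit. MYO10 lies on chromosome 5 from 16661907 to 16936288 (GRCh38), in a stretch where most genes were higher in clone 98. Its neighbours ZNF622 and BASP1 had log2 values of 0.97 and 0.58, and RETREG1 passed at 1.06. JAG1, the Notch ligand edited in other clones of the series, had 80.5 ± 13.7 CPM in clone 98 against 102 ± 22.1 in clone 99 (log2 -0.34 ± 0.16, adjusted p = 0.098) and did not pass.

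Genes count as called here where the adjusted p was under 0.05 and the log2 fold change 1 or more in size. Of 19703 genes tested, 1882 were called, which is 9.55%. Clone 98 was higher in 842 of them (4.27% of genes tested) and lower in 1040 (5.28%). The same rule called 861 genes (4.37%) between wild-type clones 38 and 75 and 4138 (21%) between JAG1 knockout clones 35 and 72. Differences were mostly small, with a median absolute log2 value of 0.283 over all genes tested, and large ones leaned towards lower levels in clone 98. An absolute log2 value of at least 2 was reached by 281 genes higher and 355 lower in clone 98, and one of at least 5 by 32 higher and 82 lower. The 4 cultures of one clone all lay above the 4 of the other for 6892 genes (35.0%), and 1593 of the called genes were among them. Weakly expressed genes made up most calls. Of genes whose mean in the higher clone was under 1 CPM, 15.5% were called, and so were 15.5% of those between 1 and 10 CPM, 3.62% between 10 and 100 CPM, and 1.49% at 100 CPM or more. Long non-coding RNAs were called in 12% of cases, with 152 higher and 293 lower in clone 98, and protein-coding genes in 9.25%, 604 higher and 653 lower.

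**Figure D1:**
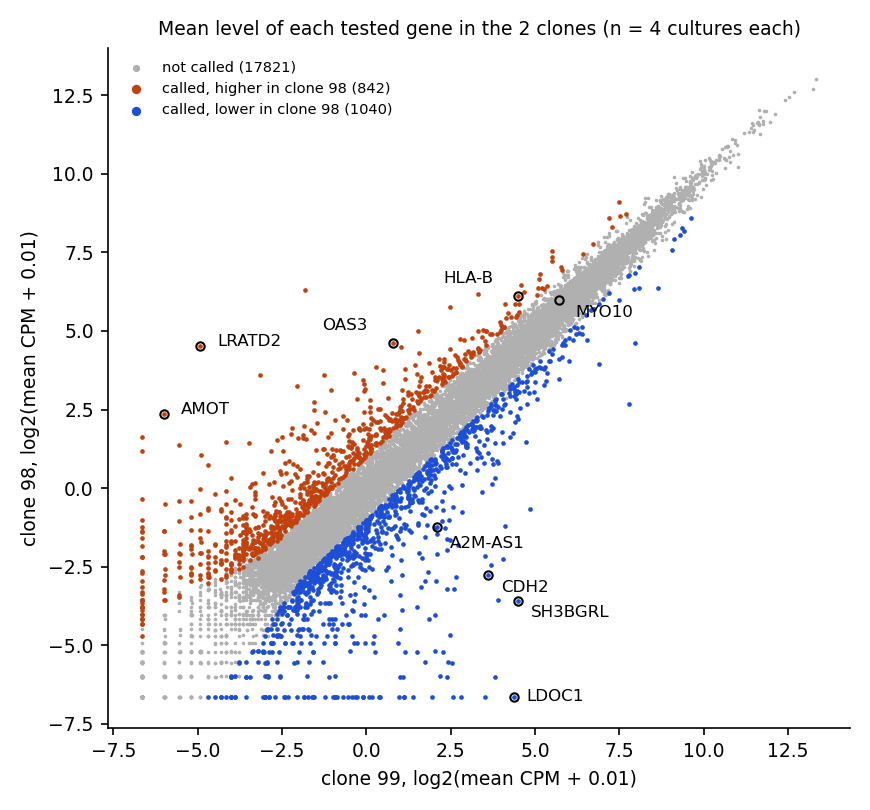
Mean level of each of the 19703 tested genes in clone 98 (vertical axis) against clone 99 (horizontal axis), as log2 of mean CPM plus 0.01, n = 4 cultures each. Points away from the diagonal are the 842 genes called higher (orange) and the 1040 called lower (blue) in clone 98, and MYO10 sits on the diagonal.

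CDH2, the gene of N-cadherin, was nearly silent in clone 98. It lies on chromosome 18 from 27932879 to 28177130 and had 0.0681, 0.224, 0.115 and 0.1404 CPM in clone 98 and 12.1, 13.6, 10.99 and 12.3 CPM in clone 99 (log2 -6.45 ± 0.16, adjusted p = 5.5e-31). The clones did not overlap, and counts were 3, 10, 5 and 6 in the cultures of clone 98, against 523, 597, 466 and 541 in those of clone 99. In bulk cultures, fewer expressing cells and less RNA per cell cannot be told apart. Clone 98 was the exception among the lines. The next lowest line was clone 99 itself, and JAG1 knockout clone 35 followed with 19.1 CPM, knockdown clone 84 with 29.8, wild-type clones 38 and 75 with 36.3 and 43.7, and leaders with 38.3 CPM. JAG1 knockout clone 72 had the highest level, 119.8 CPM. Genes beside CDH2 on the chromosome were close to equal, KCTD1 at a log2 value of 0.15 and the desmosomal cadherin DSC2 at -0.01, while DSG2, another desmosomal cadherin, was also lower in clone 98. DSG2 had 2.11, 2.17, 1.925 and 2.504 CPM in clone 98, against 13.1, 12.7, 11.5 and 11.7 CPM in clone 99 (log2 -2.49 ± 0.13, adjusted p = 7.9e-20).
The window around the start of CDH2 (chr18:28177081-28177380, minus strand, RefSeq, GRCh38.p14, 250 bases before to 50 bases after the start) is shown because the gene was clearly expressed in clone 99 and almost silent in clone 98, with CG dinucleotides in capitals:
CDH2: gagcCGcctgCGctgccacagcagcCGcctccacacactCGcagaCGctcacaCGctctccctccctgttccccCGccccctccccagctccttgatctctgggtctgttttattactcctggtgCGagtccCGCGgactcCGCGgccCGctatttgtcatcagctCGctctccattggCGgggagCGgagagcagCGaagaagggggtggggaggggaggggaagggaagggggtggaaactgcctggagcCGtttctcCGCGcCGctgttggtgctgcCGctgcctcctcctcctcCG
It holds 23 CG, a dinucleotide at which DNA can be methylated. At least 1 CG is present in 95.8% of the 27305 promoter windows of the table and at least 23 in 35.6% of them, so many windows are as rich in CG as that of CDH2. Methylation was not measured.

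Across the 10 lines, the genes whose mean level followed that of CDH2 most closely were MAN1A1, a Golgi mannosidase, and POLD2, a DNA polymerase subunit, at the same Spearman coefficient (0.988 over 10 lines). MAN1A1 had 0.386, 0.403, 0.206 and 0.117 CPM in clone 98, against 7.05, 7.47, 5.97 and 5.63 CPM in clone 99, without overlap. The log2 value of POLD2 between the clones was 0.01. HDHD2, DMTF1 and TRMT5 followed at 0.976, 0.964 and 0.964, and of these DMTF1 alone differed by more than 0.3 on the log2 scale between the clones (-0.37). The lines share an origin, so these coefficients are descriptions.

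Of 12 tested classical cadherins and catenins, 4 were called higher (2 with a minimum count of 50) and 1, CDH2, lower in clone 98, with a median log2 value of 0.00. The share called was 41.7% in this list, 57.1% in protocadherins, 32.1% in epithelial genes and 23.8% in mesenchymal factors. Among all genes tested 9.55% were called, 4.27% higher and 5.28% lower in clone 98. Among the higher ones was JUP, plakoglobin, a catenin of adherens junctions and desmosomes, with 8.42 ± 1.59 CPM in clone 98 against 3.93 ± 0.801 in clone 99 (log2 1.10 ± 0.18, adjusted p = 3.1e-06). Without replicate 3 of clone 99 its log2 value was 1.00, just under the threshold. The other 3 higher ones, CDH4, CDH22 and CTNND2, averaged under 1 CPM in both clones. Protocadherin PCDH1 was higher as well, at 5.65 ± 1.13 CPM in clone 98 against 1.25 ± 0.445 in clone 99 (log2 2.18 ± 0.22, adjusted p = 2.8e-11). Of 7 tested protocadherins 3 were called higher and 1 lower, and 1 higher without replicate 4 of clone 99. The lower call, PCDH18, was lost without replicate 1, 2 or 4 of clone 98 or replicate 2 of clone 99. Epithelial junction and identity genes went both ways, with 4 of 28 called higher (2 with a minimum count of 50) and 5 lower. Claudins of tight junctions were on both sides. CLDN3 had 0.0681, 0.112, 0.183 and 0.187 CPM in clone 98 and 2.45, 2.125, 1.46 and 2.165 CPM in clone 99 (log2 -3.87 ± 0.32, adjusted p = 1.9e-13). CLDN4 had 1.63 ± 0.449 CPM in clone 98 against 4.58 ± 0.783 in clone 99 (log2 -1.49 ± 0.17, adjusted p = 7.8e-10). CLDN9, at under 1 CPM, was called higher, with 0.182, 0.291, 0.3896 and 0.234 CPM in clone 98, against 0.0693, 0.114, 0.0472 and 0.0456 CPM in clone 99 (log2 1.94 ± 0.55, adjusted p = 0.0037). Lower as well was SPINT2, an inhibitor of epithelial serine proteases, at 2.58 ± 0.762 CPM in clone 98 against 7.77 ± 0.8925 in clone 99 (log2 -1.59 ± 0.16, adjusted p = 3e-11). KRT8, a simple epithelial keratin, had 599.8 ± 51.75 CPM in clone 98 against 305 ± 69.4 in clone 99, and its log2 value of 0.97 missed the threshold. It passed without replicate 4 of clone 98 (1.03) and without replicate 3 of clone 99 (1.13). The epithelial and mesenchymal lists did not move as blocks. Of 21 mesenchymal factors 2 were called higher and 3 lower. The matrix protein SPARC was lower, at 0.2185 ± 0.128 CPM in clone 98 against 1.697 ± 0.585 in clone 99 (log2 -2.95 ± 0.36, adjusted p = 9.6e-09). The homeobox factor PRRX1 was higher, at 21.95 ± 6.13 CPM in clone 98 against 10.01 ± 2.37 in clone 99 (log2 1.13 ± 0.16, adjusted p = 4.7e-07). Both higher calls, PRRX1 and TPM1, were lost without replicate 3 of clone 98 (0.97 and 0.94), and TPM1 also without replicate 1 or 2 of clone 99 (0.86 and 0.99). NT5E, the ecto-enzyme CD73 of mesenchymal cells, had 187, 151, 211 and 216 CPM in clone 98, against 515, 492, 540 and 589 CPM in clone 99 (log2 -1.48 ± 0.11, adjusted p = 1.4e-12), without overlap.

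A2M-AS1, an antisense RNA at the gene of the protease inhibitor alpha-2-macroglobulin, was the second marker of the pair. It lies on chromosome 12 from 9065177 to 9068055 and had 0.3405, 0.403, 0.642 and 0.281 CPM in clone 98 and 4.23, 5.005, 4.74 and 3.17 CPM in clone 99 (log2 -3.35 ± 0.27, adjusted p = 5.8e-14). Here clone 99 was the exception, since the other 8 lines had between 0.0482 and 0.947 CPM and leaders had 0.0873 CPM. The gene overlaps A2M, which starts at 9067708, and the strand setting of the counting is not given in the sources used here, so reads of the overlap cannot be assigned to a strand. A2M had 0.227, 0.291, 0.229 and 0.351 CPM in clone 98, against 0.3697, 0.457, 0.849 and 0.501 CPM in clone 99 (log2 -0.98 ± 0.39, adjusted p = 0.038), below the threshold of the fold. It passed without replicate 4 of clone 98 (-1.11) and without replicate 1 or 2 of clone 99 (-1.13 and -1.04). RRAS, a small GTPase of the Ras family, followed A2M-AS1 most closely across the lines (Spearman coefficient 0.988 over 10 lines). It had 28.04, 33.3, 39.9 and 32.2 CPM in clone 98, against 63.3, 65.7, 61.45 and 49.5 CPM in clone 99, a log2 value of -0.85.

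SH3BGRL and HMGN5 share a promoter region on chromosome X and were both nearly silent in clone 98. SH3BGRL encodes a small thioredoxin-like protein and HMGN5 a nucleosome-binding protein. SH3BGRL had 0.182, 0.112, 0 and 0 CPM in clone 98 and 22.9, 25.4, 19.9 and 22.5 CPM in clone 99 (log2 -8.20 ± 0.26, adjusted p = 1.4e-24). HMGN5 had 0, 0, 0 and 0.0468 CPM in clone 98, against 6.45, 6.15, 3.56 and 5.15 CPM in clone 99, a ratio of 467 between clone 99 and clone 98 (exact 95% counting interval 129 to 3860). The log2 value of SH3BGRL was -9.1 without replicate 1 of clone 98, which held most of the few counts. Neither gene overlapped between the clones. Clone 98 again stood alone for SH3BGRL, which ranged from 13.05 to 46.3 CPM in the other 8 lines. HMGN5 ranged from 0.266 to 22.2 CPM in them.
The 2 genes start 189 bases apart on opposite strands, and their windows of 300 bases share 288. The window of SH3BGRL (chrX:81201852-81202151, plus strand, RefSeq, GRCh38.p14) is shown because both genes start in it, with CG in capitals:
SH3BGRL: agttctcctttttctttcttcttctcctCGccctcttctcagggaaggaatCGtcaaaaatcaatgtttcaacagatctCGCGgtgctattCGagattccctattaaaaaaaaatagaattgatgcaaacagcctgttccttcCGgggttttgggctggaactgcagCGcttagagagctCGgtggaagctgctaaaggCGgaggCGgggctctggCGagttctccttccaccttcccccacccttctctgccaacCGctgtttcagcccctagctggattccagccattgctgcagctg
It holds 12 CG, and 52.9% of all promoter windows hold at least as many. The median was 25 CG in windows of tested genes, and 23 in those of the genes at either end of the fold changes described below (21 of 24 had a window).

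In all, 13 genes with a mean of at least 1 CPM in clone 99 had no count in any culture of clone 98, and 2 genes had none in clone 99 while reaching 1 CPM in clone 98. A fold against no counts was bounded with a floor of 3 counts summed over the 4 libraries, and such bounds cover counting error only. LDOC1, a leucine zipper protein gene on chromosome X, had 0 counts in clone 98 and 19.3, 20.9, 20.85 and 21.2 CPM in clone 99, at least 1200-fold lower in clone 98. LUZP4, a cancer-testis gene, had 0 counts in clone 98 and 12.04, 11.3, 11.3 and 10.7 CPM in clone 99, at least 661-fold lower. These genes were present in clone 99 and all but absent elsewhere. LDOC1 averaged at most 0.00613 CPM and LUZP4 at most 0.00609 CPM in each of the other 8 lines. CHRM3, a muscarinic acetylcholine receptor, followed the same pattern, with 0 counts in clone 98, 2.175 ± 0.0943 CPM in clone 99 and at most 0.02902 CPM elsewhere.
The window of LDOC1 (chrX:141177080-141177379, minus strand, RefSeq, GRCh38.p14) is shown because the gene was expressed in 1 of the 10 lines, with CG in capitals:
LDOC1: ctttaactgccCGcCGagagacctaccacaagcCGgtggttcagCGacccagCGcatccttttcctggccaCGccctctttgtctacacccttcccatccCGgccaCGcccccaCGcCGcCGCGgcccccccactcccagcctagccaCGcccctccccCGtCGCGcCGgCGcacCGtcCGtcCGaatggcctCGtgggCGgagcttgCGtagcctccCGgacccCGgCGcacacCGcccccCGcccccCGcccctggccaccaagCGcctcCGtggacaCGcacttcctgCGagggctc
It holds 34 CG, and 15.3% of all promoter windows hold at least as many.

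Other genes without a count in clone 98 were expressed in most lines. RPS6KA6, a kinase of the ribosomal S6 kinase family, had 4.85, 5.46, 7.34 and 6.245 CPM in clone 99 (at least 348-fold lower in clone 98) and 3.18 to 9.97 CPM in the other 8 lines. GHR, the growth hormone receptor, had 2.38, 2.15, 2.38 and 1.64 CPM in clone 99 (at least 124-fold lower in clone 98) and 1.045 to 6.96 CPM in the others. For both, clone 98 was the only line of the 10 without a count. Both lie in chromosome stretches, described below, where most genes were lower in clone 98. PPARGC1A, a coactivator of genes for mitochondrial biogenesis, had 8.48, 5.83, 7.34 and 6.59 CPM in clone 99 (at least 411-fold lower in clone 98). It had 5.73 to 6.92 CPM in 6 of the other lines, 0.0437 CPM in leaders and 0.00571 CPM in knockdown clone 84. Clone 98 thus resembled leaders for this gene. HTATIP2 also resembled leaders, with 0 counts in both and 3.83 ± 0.147 CPM in clone 99 (at least 223-fold lower in clone 98). The pseudogene ACTBP8, whose reads can be shared with actin genes, completed the 8 named genes at 0 in clone 98. In the opposite direction LRRC3B, a leucine-rich repeat membrane protein gene, had 3.04, 2.93, 3.23 and 3.02 CPM in clone 98 and no count in clone 99, at least 176-fold higher in clone 98, and at most 0.0122 CPM in any other line. DESeq2 gave LRRC3B an adjusted p of 0.24. The pseudogene TPTEP1 had 2.27 ± 0.519 CPM in clone 98, at least 130-fold higher, with 27.03 CPM in followers and 4.34 CPM in the parental line.

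**Figure D2:**
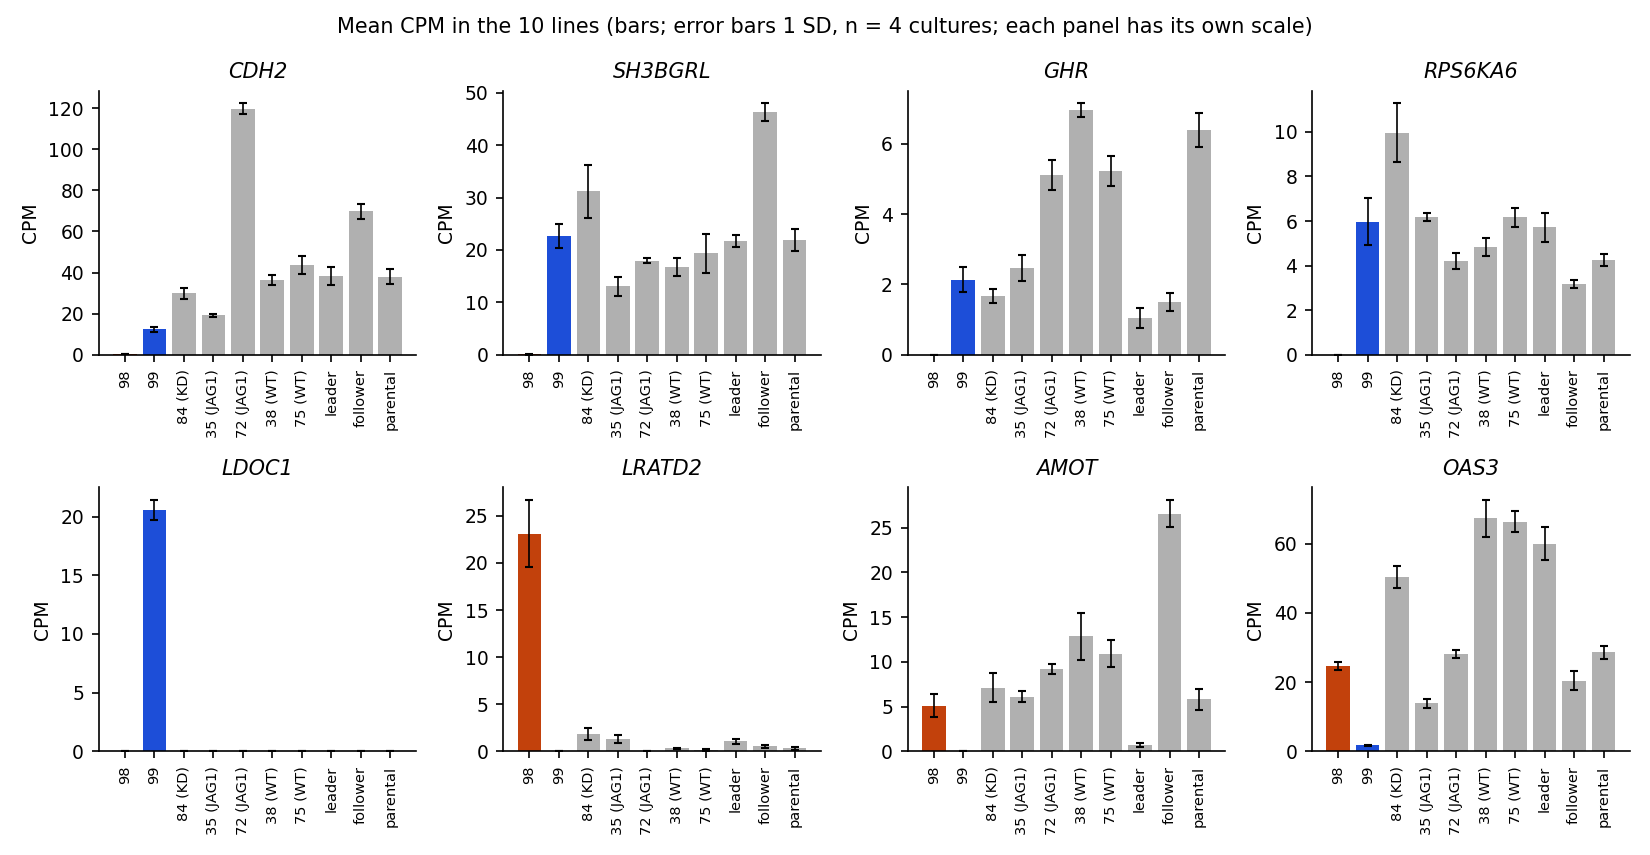
Mean CPM (bars, 1 SD as error bars, n = 4 cultures) of 8 genes in the 10 lines, with clone 98 in orange, clone 99 in blue and other lines in grey, each panel on its own scale. CDH2, SH3BGRL, GHR and RPS6KA6 were missing or nearly so in clone 98 alone, LDOC1 was high in clone 99 alone, LRATD2 was high in clone 98 alone, and AMOT and OAS3 were lowest in clone 99.

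Named next are the genes with the 12 lowest and 12 highest fold changes among those of at least 5 CPM in the higher clone with separate cultures, after non-coding and clone-based names were set aside. The 12 lowest were LDOC1, LUZP4, PPARGC1A, RPS6KA6, OXCT1, CNR1, HMGN5, SH3BGRL, PXDN, JAKMIP2, CDH2 and ARMCX1. OXCT1, the enzyme with which cells use ketone bodies, had 1 count in the 4 cultures of clone 98 and 13.6, 14.8, 14.3 and 13.01 CPM in clone 99, a ratio of 2440 between clone 99 and clone 98 (exact 95% counting interval 437 to 96300). It was also near 0 in leaders, at 0.0741 CPM, and abundant in followers, at 70.9 CPM. CNR1, a cannabinoid receptor, had 1 count in clone 98 and 3.905, 4.64, 6.51 and 5.79 CPM in clone 99, a ratio of 911 (163 to 36000). Leaders had 6.17 CPM. For CNR1, then, clone 98 departed from leaders, and for OXCT1 clone 99 did. PXDN, peroxidasin, which cross-links basement membrane collagen, had 0.0681, 0.0896, 0.0917 and 0.0468 CPM in clone 98 and 11.3, 14.3, 18.45 and 15.2 CPM in clone 99 (log2 -7.58 ± 0.24, adjusted p = 2e-26). High PXDN was shared by clone 99 and JAG1 knockout clone 35 (31.9 CPM), against at most 0.259 CPM in the remaining 7 lines. ARMCX1, which takes part in mitochondrial transport, had 0.0681, 0.3135, 0.0458 and 0.374 CPM in clone 98, against 16.6, 18.8, 16.2 and 14.8 CPM in clone 99 (log2 -6.36 ± 0.28, adjusted p = 2.3e-20). JAKMIP2 had 0.0288 ± 0.0221 CPM in clone 98 against 5.54 ± 1.37 in clone 99 (log2 -7.46 ± 0.38, adjusted p = 1.6e-18).

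The 12 highest were LRATD2, AMOT, DMKN, BMP7, DAB2, RIMS4, SLC37A1, OAS3, PDE10A, NETO1, N4BP3 and SORL1. LRATD2 had 21.7, 21.1, 21.2 and 28.5 CPM in clone 98 and 0.0462, 0, 0.0236 and 0.0228 CPM in clone 99 (log2 9.79 ± 0.38, adjusted p = 1.7e-22), and at most 1.83 CPM in any other line. DMKN, dermokine, a protein secreted by the epidermis, had 11.1, 14.8, 10.3 and 11.9 CPM in clone 98, against 0.0924, 0.0914, 0.0472 and 0.182 CPM in clone 99 (log2 6.82 ± 0.30, adjusted p = 1.7e-22), and at most 1.88 CPM in any other line. Both were expressed at these levels in clone 98 alone. AMOT, angiomotin, a scaffold that binds the coactivator YAP, had 3.18, 5.62, 5.98 and 5.615 CPM in clone 98 and 0.0231, 0, 0 and 0 CPM in clone 99, a ratio of 883 between clone 98 and clone 99 (exact 95% counting interval 158 to 34900). Leaders had 0.705 CPM of AMOT and the remaining 7 lines 5.81 to 26.6 CPM, so clone 99 was the lowest line. BMP7, a bone morphogenetic protein, had 10.9, 13.01, 12.7 and 12.2 CPM in clone 98, against 0.462, 0.4799, 0.212 and 0.479 CPM in clone 99 (log2 4.89 ± 0.21, adjusted p = 2.7e-21). It split the lines: leaders had 37.4 CPM and wild-type clones 38 and 75 had 0.127 and 0.02845, so clone 98 lay nearer to leaders and clone 99 nearer to the wild-type clones.
SORL1, an endosomal sorting receptor, had 26.5, 34.04, 34.9 and 31.3 CPM in clone 98 and 2.17, 2.79, 2.901 and 3.601 CPM in clone 99 (log2 3.46 ± 0.15, adjusted p = 3.6e-19), and leaders had 43.6 CPM. NETO1, an auxiliary subunit of glutamate receptors, had 14.6 ± 1.16 CPM in clone 98 against 1.22 ± 0.2702 in clone 99 (log2 3.57 ± 0.13, adjusted p = 2.6e-25), and leaders had 16.3 CPM. For both, clone 98 was nearer to leaders and clone 99 low. DAB2, an endocytic adaptor, had 6.62 ± 0.672 CPM in clone 98 against 0.33 ± 0.1205 in clone 99 (log2 4.32 ± 0.18, adjusted p = 5.7e-23). RIMS4, of a presynaptic protein family, had 8.62 ± 1.11 CPM in clone 98 against 0.475 ± 0.169 in clone 99 (log2 4.18 ± 0.26, adjusted p = 6.7e-17). SLC37A1, a sugar phosphate transporter, had 5.56 ± 0.327 CPM in clone 98 against 0.334 ± 0.114 in clone 99 (log2 4.04 ± 0.21, adjusted p = 2.3e-20). All 3 averaged under 0.5 CPM in clone 99. The phosphodiesterase PDE10A had 5.302 ± 1.37 CPM in clone 98 against 0.4199 ± 0.183 in clone 99 (log2 3.65 ± 0.41, adjusted p = 9.7e-09). N4BP3 had 22.4 ± 8.785 CPM in clone 98 against 2.04 ± 1.18 in clone 99 (log2 3.46 ± 0.35, adjusted p = 8.3e-10).

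**Figure D3:**
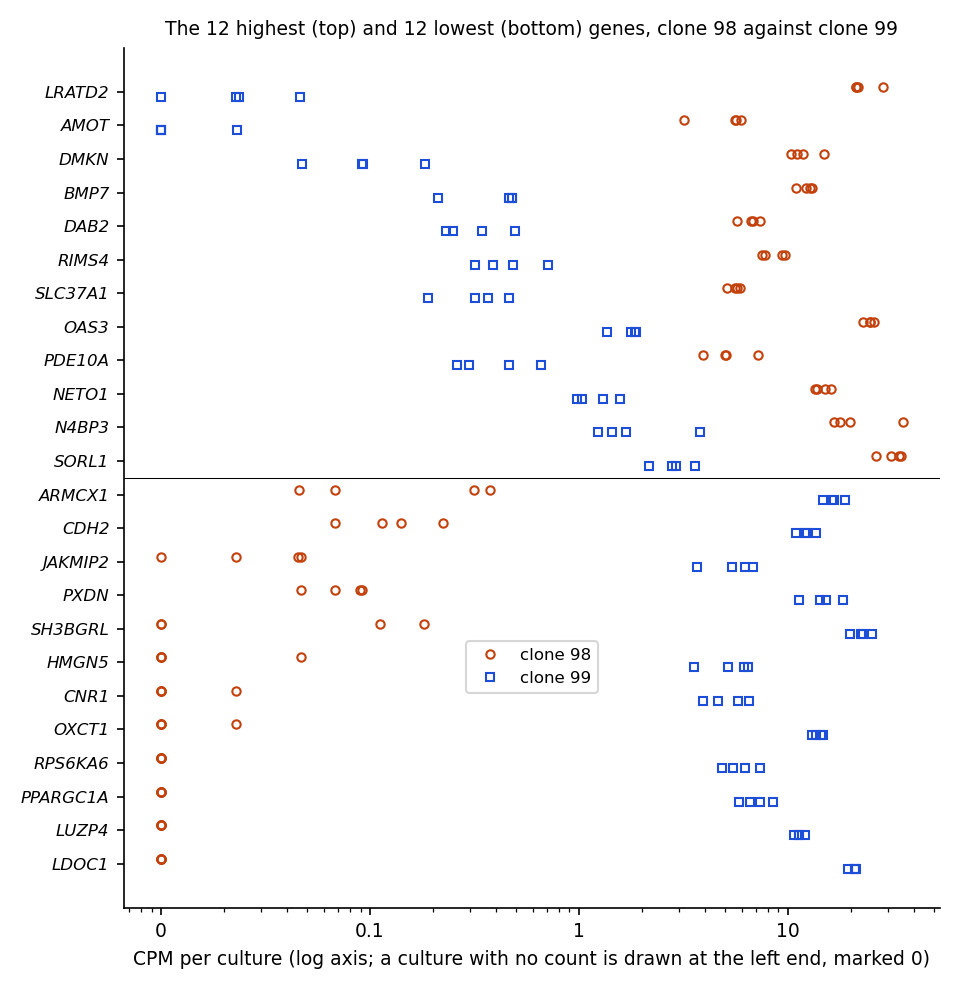
CPM in each culture (log axis, cultures without a count drawn at the left end) of the 12 genes with the highest (top) and the 12 with the lowest (bottom) fold change, clone 98 as orange circles and clone 99 as blue squares. The clones are apart in every row, and RPS6KA6, PPARGC1A, LUZP4 and LDOC1 have no count in clone 98.

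Neither clone was closer to unedited leaders throughout. Among genes called higher in clone 98, the level in leaders was nearer to clone 98 for 400 and nearer to clone 99 for 442, and among genes called lower it was nearer to clone 98 for 534 and nearer to clone 99 for 506. Against the mean of wild-type clones 38 and 75 the counts were 372 and 470 for higher genes, and 485 and 555 for lower genes. Against the parental line they were 454 and 388 for higher genes, and 396 and 644 for lower genes. Of the 842 genes higher in clone 98, clone 98 was the highest of the 10 lines in 309 and clone 99 the lowest in 201, with 19 genes in both counts. Of the 1040 genes lower in clone 98, clone 98 was the lowest line in 333 and clone 99 the highest in 283, with 32 in both. Neither clone was at an end of the 10 lines in 351 of the higher and 456 of the lower genes. Among called genes, each clone was thus the highest line for some and the lowest for others. The genes were called because the clones differ, which favours such ends, and the share over all genes was not computed.

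The gene lists that follow count called members beside the 4.27% higher and 5.28% lower among all genes tested. Interferon-stimulated genes, induced by type I interferon and by sensors of double-stranded RNA, were more often higher in clone 98, with 15 of 56 called higher and 5 lower and a median log2 value of 0.42, against -0.006 over all genes tested. Leaving out 1 culture at a time gave 12 to 15 higher, and the fit to the 8 libraries alone gave 2 lower. OAS3, an oligoadenylate synthetase that activates RNase L, had 25.9, 24.7, 22.96 and 24.7 CPM in clone 98, against 1.85, 1.78, 1.37 and 1.87 CPM in clone 99 (log2 3.84 ± 0.10, adjusted p = 1.1e-30). In the other 8 lines OAS3 ran from 13.9 to 67.3 CPM, so clone 99 was low rather than clone 98 high. USP18, a protease that removes ISG15 from proteins, had 8.105, 8.96, 7.13 and 7.49 CPM in clone 98 and 3.12, 3.04, 2.925 and 2.37 CPM in clone 99 (log2 1.47 ± 0.11, adjusted p = 1.2e-14), without overlap. IFIT2 went the other way, at 0.326 ± 0.123 CPM in clone 98 against 1.13 ± 0.436 in clone 99 (log2 -1.79 ± 0.41, adjusted p = 0.00051). So did the nuclear body protein SP100, at 1.096 ± 0.376 CPM in clone 98 against 2.93 ± 1.015 in clone 99 (log2 -1.42 ± 0.23, adjusted p = 3.2e-06). Reads of interferon-induced families can be shared between similar copies.

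Antigen presentation genes were called higher in 6 of 17 cases and lower in 0, with a median log2 value of 0.36. DESeq2 called 5 higher and 0 lower, edgeR had 0 lower at an unadjusted p under 0.05, and the fit to the 8 libraries alone called 3 higher. HLA-B, a class I molecule that presents peptides to T cells, had 65.7, 78.2, 66.6 and 68.3 CPM in clone 98, against 22.7, 21.5, 23.02 and 23.7 CPM in clone 99 (log2 1.62 ± 0.06, adjusted p = 2.2e-25). HLA-C, another, had 51.7, 68.7, 54.5 and 56.6 CPM in clone 98 and 18.6, 18.2, 15.2 and 16.9 CPM in clone 99 (log2 1.75 ± 0.08, adjusted p = 9e-22). NLRC5, a transactivator of class I genes, had 1.725, 1.86, 1.63 and 1.78 CPM in clone 98, against 0.508, 0.457, 0.425 and 0.4102 CPM in clone 99 (log2 1.95 ± 0.22, adjusted p = 7.9e-10). None of the 3 overlapped between the clones. The remaining higher calls, HLA-DRB1, HLA-DQB1 and CD74, averaged under 1 CPM in both clones, and the cultures overlapped for HLA-DQB1. HLA-B and HLA-C averaged 53.5 to 143.5 and 51.5 to 108 CPM in the other 8 lines, which put clone 99 lowest of the 10. Reads of HLA genes are similar between loci and may be split.

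Cytokines, chemokines and feedback genes driven by NF-kB were called higher in 11 of 29 cases and lower in 0, with a median log2 value of 0.81. At an unadjusted p under 0.05 edgeR had 18 higher and 2 lower, and DESeq2 called 12 higher and 0 lower. CXCL1, which attracts neutrophils, had 11.99, 14.2, 14.1 and 22.2 CPM in clone 98 and 2.29, 3.06, 5.78 and 3.46 CPM in clone 99 (log2 2.10 ± 0.31, adjusted p = 9.3e-07). CSF1, the growth factor of macrophages, had 3.34, 2.69, 3.48 and 4.73 CPM in clone 98, against 0.185, 0.16, 0.307 and 0.593 CPM in clone 99 (log2 3.50 ± 0.30, adjusted p = 2.4e-12). Clone 98 was above clone 99 in every culture for both. CXCL3 had 3.72 ± 1.67 CPM in clone 98 against 0.853 ± 0.155 in clone 99 (log2 2.12 ± 0.30, adjusted p = 2.1e-07). The cytokine IL32 had 2.395 ± 0.749 CPM in clone 98 against 0.714 ± 0.544 in clone 99 (log2 1.74 ± 0.43, adjusted p = 0.0014, and 2.38 without replicate 4 of clone 99). The most abundant of the called members, named after its values were seen, was BIRC3, an inhibitor of apoptosis induced by NF-kB. It had 540.4, 450.2, 383 and 835 CPM in clone 98, against 48.04, 114, 148 and 407 CPM in clone 99 (log2 1.62 ± 0.39, adjusted p = 0.00089). The lowest culture of clone 98 lay under the highest of clone 99. Cultures of the clones overlapped for the called members IL32, IL23A, NFKBIA and CCL20 too. Leaving out 1 culture at a time gave 9 to 12 higher, with 1 called lower without replicate 4 of clone 98.

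Growth factor genes were called higher more often than lower. Of 50 receptor tyrosine kinases and their ligands 9 were called higher and 3 lower in clone 98, with a median of 0.41. IGF2, an insulin-like growth factor, had 111, 70.9, 75.6 and 96.7 CPM in clone 98 and 27.3, 18.3, 25.4 and 25.8 CPM in clone 99 (log2 1.87 ± 0.18, adjusted p = 1.2e-09). PDGFA, a ligand of platelet-derived growth factor receptors, had 4.31, 5.15, 5.202 and 5.08 CPM in clone 98, against 0.832, 0.411, 0.6605 and 0.524 CPM in clone 99 (log2 3.02 ± 0.21, adjusted p = 3.6e-16). IGFBP2, which binds insulin-like growth factors, had 4.73 ± 1.01 CPM in clone 98 against 1.08 ± 0.242 in clone 99 (log2 2.12 ± 0.23, adjusted p = 1.3e-09). The receptor ERBB4 had 1.72 ± 0.328 CPM in clone 98 against 0.358 ± 0.06955 in clone 99 (log2 2.25 ± 0.20, adjusted p = 2e-12). EGFR, the receptor of epidermal growth factor, had 60.35 ± 2.74 CPM in clone 98 against 43.1 ± 9.26 in clone 99, with a log2 value of 0.49 under the threshold. Of 45 WNT pathway genes 8 were higher and 4 lower. RNF43, a ubiquitin ligase that removes Frizzled receptors, had 9.01, 8.94, 9.44 and 6.715 CPM in clone 98 and 1.02, 0.868, 1.56 and 0.319 CPM in clone 99 (log2 3.18 ± 0.36, adjusted p = 5.3e-09). The WNT receptor ROR2 had 1.23 ± 0.202 CPM in clone 98 against 0.0517 ± 0.0474 in clone 99 (log2 4.49 ± 0.51, adjusted p = 5.2e-09). RSPO3, which enhances WNT signalling, had 1.36 ± 0.271 CPM in clone 98 against 0.163 ± 0.1898 in clone 99 (log2 3.05 ± 0.41, adjusted p = 4.2e-08, and 4.11 without replicate 3 of clone 99). The secreted antagonist SFRP1 was lower, at 7.045 ± 2.22 CPM in clone 98 against 33.2 ± 17 in clone 99 (log2 -2.24 ± 0.25, adjusted p = 2.2e-08). Of 52 genes of the TGF-beta and BMP pathway 4 were higher (2 with a minimum count of 50) and 6 lower. TGFB2, a TGF-beta ligand, had 27.1, 24.2, 31.1 and 27.7 CPM in clone 98, against 5.615, 9.99, 10.02 and 9.16 CPM in clone 99 (log2 1.66 ± 0.22, adjusted p = 1.4e-07). ID4, an inhibitor of basic helix-loop-helix factors, had 8.17 ± 2.42 CPM in clone 98 against 28.3 ± 12.3 in clone 99 (log2 -1.79 ± 0.25, adjusted p = 5.3e-07). The receptor ACVR1C had 0.332 ± 0.06301 CPM in clone 98 against 1.27 ± 0.2703 in clone 99 (log2 -1.93 ± 0.23, adjusted p = 3e-09). Ligands were called in both directions. BMP7 and TGFB2 were higher in clone 98, and so were BMP4 and BMP5, while BMP3 and GDF15 were lower (log2 -1.52 and -1.54). These last 4 ligands averaged under 1 CPM in both clones.

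Matrix genes were called often and in both directions. Of 27 collagens 6 were higher and 5 lower (2 lower in the fit to the 8 libraries alone, 3 with a minimum count of 50). Of 56 matricellular proteins, laminins and proteoglycans 6 were higher and 8 lower. Of 54 matrix proteases and inhibitors 8 were higher and 5 lower (3 lower without replicate 4 of clone 99). FBN2, fibrillin-2, a component of microfibrils, had 0.1135, 0.202, 0.1375 and 0.234 CPM in clone 98 and 11.8, 14.2, 10.1 and 15.7 CPM in clone 99 (log2 -6.22 ± 0.38, adjusted p = 7.8e-15). LAMB3, a laminin chain of the epithelial basement membrane, had 195, 191, 122 and 245 CPM in clone 98, against 40, 37.55, 35.05 and 68.01 CPM in clone 99 (log2 2.06 ± 0.20, adjusted p = 3.4e-10). LAMA4, a laminin chain of vessels and muscle, had 0.316 ± 0.202 CPM in clone 98 against 5.21 ± 0.8396 in clone 99 (log2 -4.04 ± 0.29, adjusted p = 2.2e-15). These chains differed between the clones in opposite directions. COL9A3, a cartilage collagen chain, had 1.74 ± 0.424 CPM in clone 98 against 15.02 ± 2.18 in clone 99 (log2 -3.11 ± 0.25, adjusted p = 3.7e-13). COL12A1 had 4.07 ± 1.66 CPM in clone 98 against 0.921 ± 0.3745 in clone 99 (log2 2.15 ± 0.34, adjusted p = 4.2e-06). Of the proteases, the membrane-bound MMP15 had 11.2 ± 0.943 CPM in clone 98 against 2.22 ± 0.5896 in clone 99 (log2 2.33 ± 0.17, adjusted p = 2.2e-15). ADAMTS7 had 4.52 ± 0.655 CPM in clone 98 against 0.513 ± 0.125 in clone 99 (log2 3.13 ± 0.29, adjusted p = 5e-12). The proteases MMP16 and PLAU were called lower instead, at log2 values of -1.01 and -1.16, and the cultures of the clones overlapped for PLAU. Inhibitors were likewise on both sides. TIMP3 was called higher, at 0.2497, 0.336, 0.1375 and 0.164 CPM in clone 98, against 0, 0, 0.0708 and 0 CPM in clone 99 (log2 3.47 ± 0.93, adjusted p = 0.0024). The inhibitor SERPINB1, which blocks neutrophil elastase, had 0.0908, 0.0672, 0.06875 and 0.164 CPM in clone 98 and 6.63, 6.26, 5.45 and 5.63 CPM in clone 99 (log2 -5.90 ± 0.21, adjusted p = 9.2e-26). Of 19 integrins, receptors for this matrix, 3 were higher and 3 lower. ITGB3 had 8.18 ± 0.455 CPM in clone 98 against 2.94 ± 0.298 in clone 99 (log2 1.48 ± 0.29, adjusted p = 7e-05). ITGB2, of leukocyte integrins, had 1.68 ± 0.619 CPM in clone 98 against 0.212 ± 0.1225 in clone 99 (log2 2.96 ± 0.32, adjusted p = 2.8e-10). ITGA3, at 132 ± 29.2 CPM in clone 98 against 269 ± 24.1 in clone 99 (log2 -1.03 ± 0.13, adjusted p = 9.7e-08), lay at the threshold. So did ITGB5, at 174 ± 26.65 CPM in clone 98 against 85.8 ± 13.8 in clone 99 (log2 1.02 ± 0.10, adjusted p = 2e-10). ITGA3 was lost without replicate 1 or 2 of clone 98 or replicate 3 or 4 of clone 99 (log2 values between -0.91 and the threshold). ITGB5 was lost without replicate 1 of clone 98 or replicate 1 or 2 of clone 99 (0.92 to 0.99). In all, 1 integrin was called lower without replicate 1 of clone 98 or replicate 3 of clone 99.

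Of genes of filopodia, where myosin-X acts, 2.08% were called, against 9.55% of all genes tested. Among all genes tested, 3.62% of those between 10 and 100 CPM and 1.49% at 100 CPM or more were called. The list was not compared with genes of like level, and its counts summed to 7279 to 7785 CPM in clone 98. Of 48 filopodia and actin regulators 1 was called higher, DAAM2, and 0 lower, with 13 lower at an unadjusted p under 0.05 and 0 lower by DESeq2, and the call of DAAM2 was lost without replicate 1 of clone 98 or replicate 2 of clone 99. Of 16 unconventional myosins 1 was higher and 2 lower. MYO7A, a motor of sensory hair bundles, had 0.503 ± 0.166 CPM in clone 98 against 1.97 ± 0.1296 in clone 99 (log2 -1.96 ± 0.23, adjusted p = 1.6e-09). The lower count was 1 without replicate 1 of clone 98 or replicate 2 or 4 of clone 99. Of 36 Notch receptors, ligands and modulators 1 was higher and 4 lower. DTX3, of the Deltex family, had 1.07, 1.99, 2.66 and 1.825 CPM in clone 98, against 11.99, 13.2, 15.2 and 12.2 CPM in clone 99 (log2 -2.80 ± 0.18, adjusted p = 4.9e-17). DNER, a Notch-related membrane protein, had 1.71 ± 0.614 CPM in clone 98 against 5.79 ± 2.097 in clone 99 (log2 -1.76 ± 0.21, adjusted p = 1.3e-08). The coactivator MAML2 had 4.88 ± 0.674 CPM in clone 98 against 10.7 ± 1.43 in clone 99 (log2 -1.13 ± 0.11, adjusted p = 1.2e-11). Notch target genes were called in 2 of 21 cases, both lower, a share of 9.52% that lay near the 9.55% of all genes tested. One of them, TRIB2, a pseudokinase, had 1.72 ± 1.09 CPM in clone 98 against 11.1 ± 2.48 in clone 99 (log2 -2.69 ± 0.27, adjusted p = 1.1e-10). The other, ID2, was lost without replicate 1 or 2 of clone 98 or replicate 3 or 4 of clone 99 (-0.79 to -0.99). At an unadjusted p under 0.05 edgeR had 7 Notch targets higher and 4 lower. Of Notch targets 0 were called higher, 0 by DESeq2, and 1 without replicate 2 of clone 98 or replicate 3 of clone 99.

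Neural genes, which H1299 and other lung carcinoma lines often express, differed by member. Of 33 neural adhesion and synapse genes 5 were higher and 8 lower. NLGN1, neuroligin, a synaptic adhesion protein, had 0.272, 0.202, 0.3896 and 0.117 CPM in clone 98 and 5.08, 5.23, 5.85 and 4.67 CPM in clone 99 (log2 -4.39 ± 0.21, adjusted p = 2.8e-21). UCHL1, a neuronal ubiquitin hydrolase, had 60.03, 93.3, 84.9 and 88.4 CPM in clone 98, against 228, 274, 279.6 and 292 CPM in clone 99 (log2 -1.72 ± 0.09, adjusted p = 3.3e-18). NFASC, neurofascin, was higher, at 11.5 ± 0.732 CPM in clone 98 against 3.07 ± 0.185 in clone 99 (log2 1.91 ± 0.11, adjusted p = 3.1e-19). So was the synaptotagmin SYT7, at 2.295 ± 0.138 CPM in clone 98 against 0.5245 ± 0.08645 in clone 99 (log2 2.12 ± 0.21, adjusted p = 3.1e-11). FLRT2, an adhesion protein named after its values were seen, had 144, 104, 113 and 88.1 CPM in clone 98, against 20.3, 29.55, 40.9 and 51.9 CPM in clone 99 (log2 1.65 ± 0.22, adjusted p = 6.5e-07). Leaders had 0.00624 CPM of FLRT2 and wild-type clones 38 and 75 had 0 and 0.115, so both knockout clones expressed a gene nearly silent in leaders. The genes CRH and SCG2 of secreted peptides were named after their values were seen. CRH, corticotropin-releasing hormone, had 4.31, 7.88, 8.09 and 5.12 CPM in clone 98, against 300.2, 325, 178 and 78.7 CPM in clone 99 (log2 -5.12 ± 0.34, adjusted p = 1e-13). SCG2, a secretogranin of secretory granules, had 15.2, 23.4, 35.8 and 24.6 CPM in clone 98, against 259, 287, 303 and 149 CPM in clone 99 (log2 -3.33 ± 0.24, adjusted p = 8.7e-13). Of 6 tested neuroendocrine markers (of 10) 0 were higher and 3 lower, with 1 higher at an unadjusted p under 0.05 and 0 higher by DESeq2. The granule protein CHGB was among them, at 14.01 ± 2.61 CPM in clone 98 against 33.2 ± 4.77 in clone 99 (log2 -1.25 ± 0.10, adjusted p = 8.6e-14). The summed level of the list was on the other side, at 305 to 350.3 CPM in clone 98 and 269 to 315 CPM in clone 99. Of 61 axon guidance genes 10 were higher (6 with a minimum count of 50) and 3 lower, and without replicate 3 of clone 98 or replicate 4 of clone 99 the lower count was 6 or 5. NTN1, netrin, an axon guidance cue, had 28.2, 27.97, 48.8 and 26.8 CPM in clone 98 and 9.24, 9.51, 16.75 and 8.205 CPM in clone 99 (log2 1.59 ± 0.25, adjusted p = 2.6e-06). Its receptor UNC5C had 4.985 ± 1.61 CPM in clone 98 against 1.455 ± 0.166 in clone 99 (log2 1.78 ± 0.20, adjusted p = 1.5e-09). The ephrin receptor EPHA3 was lower, at 0.401 ± 0.189 CPM in clone 98 against 2.203 ± 0.556 in clone 99 (log2 -2.45 ± 0.26, adjusted p = 2.2e-10). Ion channels were split, with 8 of 45 higher (3 with a minimum count of 50) and 10 lower. Among the lower ones was the calcium-activated potassium channel KCNN4, at 12.5 ± 1.94 CPM in clone 98 against 41.1 ± 1.95 in clone 99 (log2 -1.71 ± 0.12, adjusted p = 6.3e-14).

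Developmental transcription factors followed the same mixed pattern. Of 74 SOX, GATA, T-box, FOX, PAX and MEIS factors and their relatives 9 were higher and 8 lower (5 lower without replicate 1 of clone 98). Of 34 HOX genes 4 were higher (2 with a minimum count of 50) and 2 lower. The higher count was 2 without replicate 4 of clone 98 or replicate 1 or 2 of clone 99, and the lower count 1 without replicate 1 or 2 of clone 98 or replicate 3 of clone 99. ISL1, a LIM homeobox factor, had 0.0908, 0.134, 0.1375 and 0.0468 CPM in clone 98, against 2.77, 4.18, 3.397 and 2.03 CPM in clone 99 (log2 -4.87 ± 0.30, adjusted p = 9.1e-17). HOXB13 had 0.0908, 0.0896, 0.0917 and 0.0702 CPM in clone 98 and 1.96, 2.19, 2.41 and 1.44 CPM in clone 99 (log2 -4.50 ± 0.36, adjusted p = 3.7e-13). Both were near 0 in leaders and wild-type clones and higher in clone 99 and JAG1 knockout clone 35, which had 3.79 CPM of ISL1 and 2.89 CPM of HOXB13. Followers had 1.59 and 6.04 CPM. The homeobox factor MSX1 had 1.72 ± 0.101 CPM in clone 98 against 0.179 ± 0.0467 in clone 99 (log2 3.25 ± 0.25, adjusted p = 1.1e-14). IRX3 had 14.4 ± 1.51 CPM in clone 98 against 4.88 ± 0.456 in clone 99 (log2 1.56 ± 0.11, adjusted p = 8.5e-15). For both, clone 99 was the lower of the clones and leaders were above either, at 6.59 and 46.6 CPM.

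Most called detoxification genes were lower in clone 98. Of 48 NRF2 targets and detoxification genes 1 was called higher and 8 lower, with a median of -0.09 and a mean of -0.5. The higher call was lost without replicate 2 or 4 of clone 98 or replicate 1 or 3 of clone 99. ME1, the cytosolic malic enzyme that makes NADPH, had 0.0681, 0.0448, 0.1604 and 0.117 CPM in clone 98, against 4.51, 5.599, 5.02 and 5.88 CPM in clone 99 (log2 -5.71 ± 0.21, adjusted p = 4.3e-25). Leaders had 8.765 CPM of ME1 and wild-type clones 8.298 and 6.22, so it was clone 98 that stood low, beside JAG1 knockout clone 35 (0.1299 CPM) and knockdown clone 84 (0.00568 CPM). GSTM3, a glutathione transferase, had 0.363, 0.6495, 0.458 and 0.468 CPM in clone 98 and 6.03, 5.325, 4.765 and 5.61 CPM in clone 99 (log2 -3.48 ± 0.18, adjusted p = 6e-20). The drug exporter ABCB1 had 0.382 ± 0.127 CPM in clone 98 against 1.98 ± 0.251 in clone 99 (log2 -2.37 ± 0.18, adjusted p = 5.8e-15). The exporter ABCC3 had 0.304 ± 0.09598 CPM in clone 98 against 1.26 ± 0.564 in clone 99 (log2 -2.05 ± 0.37, adjusted p = 1.5e-05). The calcium-binding protein genes S100A16 and S100A13 were lower as well. S100A16 had 2.74 ± 0.668 CPM in clone 98 against 26.8 ± 3.39 in clone 99 (log2 -3.29 ± 0.30, adjusted p = 9.6e-11). S100A13 had 11.01 ± 0.947 CPM in clone 98 against 52.6 ± 3.44 in clone 99 (log2 -2.26 ± 0.09, adjusted p = 7.3e-24). Of the secreted stanniocalcins, STC1 had 15.5 ± 7.265 CPM in clone 98 against 120.1 ± 61.35 in clone 99 (log2 -2.95 ± 0.34, adjusted p = 1.1e-08). STC2 went the opposite way, with 12.3 ± 2.135 CPM in clone 98 against 4.78 ± 0.8196 in clone 99 (log2 1.37 ± 0.21, adjusted p = 2.3e-06). Replication-dependent histone genes were called higher in 5 of 40 cases and lower in 0 (3 lower at an unadjusted p under 0.05, 0 lower by DESeq2, and 3 higher without replicate 4 of clone 99). Their transcripts lack a poly(A) tail, and the selection of RNA is not given in the sources used here. H1-2, a linker histone, had 42.9 ± 7.92 CPM in clone 98 against 17.45 ± 4.27 in clone 99 (log2 1.30 ± 0.16, adjusted p = 6.5e-08).

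YAP and TAZ targets, genes of a growth control pathway, were called in 15.4% of cases, against 9.55% of all genes tested. Of 26 targets 3 were higher and 1 lower, with a median log2 value of 0.30, and 16 were higher and 3 lower at an unadjusted p under 0.05. ANKRD1, a stress-responsive ankyrin repeat protein, had 4.34, 2.78, 2.86 and 4.73 CPM in clone 98, against 0.185, 0.251, 0.778 and 2.165 CPM in clone 99 (log2 2.11 ± 0.63, adjusted p = 0.0071). The kinase NUAK2 had 7.38, 6.74, 6.51 and 29.3 CPM in clone 98 and 1.69, 1.6, 2.88 and 5.17 CPM in clone 99 (log2 2.13 ± 0.52, adjusted p = 0.0012). The size of both rested on single cultures: the log2 value of NUAK2 was 1.28 without replicate 4 of clone 98, and that of ANKRD1 was 3.18 without replicate 4 of clone 99. Of 32 CDK inhibitors and growth arrest genes 1 was higher and 2 lower, a share of 9.38% that lay near that of all genes. BTG2, an antiproliferative protein, had 6.53 ± 1.86 CPM in clone 98 against 2.11 ± 0.285 in clone 99 (log2 1.63 ± 0.19, adjusted p = 2.2e-09). The D-type cyclin CCND2 had 0.558 ± 0.2655 CPM in clone 98 against 3.11 ± 0.966 in clone 99 (log2 -2.47 ± 0.33, adjusted p = 8.3e-08). Of 52 DNA methylation and chromatin regulators 1 was higher and 0 lower, with 18 lower at an unadjusted p under 0.05 and 0 by DESeq2. The higher one was the Polycomb gene CBX2, at 16.4 ± 2.11 CPM in clone 98 against 7.698 ± 0.868 in clone 99 (log2 1.09 ± 0.10, adjusted p = 1.1e-11).

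Housekeeping groups had no called member. These were 73 cytosolic ribosomal protein genes, 63 nuclear-encoded respiratory chain genes, 60 genes of G2 and mitosis, 52 of S phase, 33 of cholesterol synthesis, 15 mitochondrially encoded genes and 9 AMPK subunits. At an unadjusted p under 0.05 edgeR gave 58, 36, 25, 36, 14, 1 and 9 of them, and DESeq2 called 0 in each. Without replicate 3 of clone 99, 1 respiratory chain gene was called. Their log2 values all lay within -0.91 and 0.94, the range of the respiratory chain list. The listed genes of S phase and of G2 and mitosis thus differed by less than the fold threshold in either direction. Of all genes tested at 100 CPM or more, 1.49% were called, and these groups were not compared with genes of like level.

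**Figure D4:**
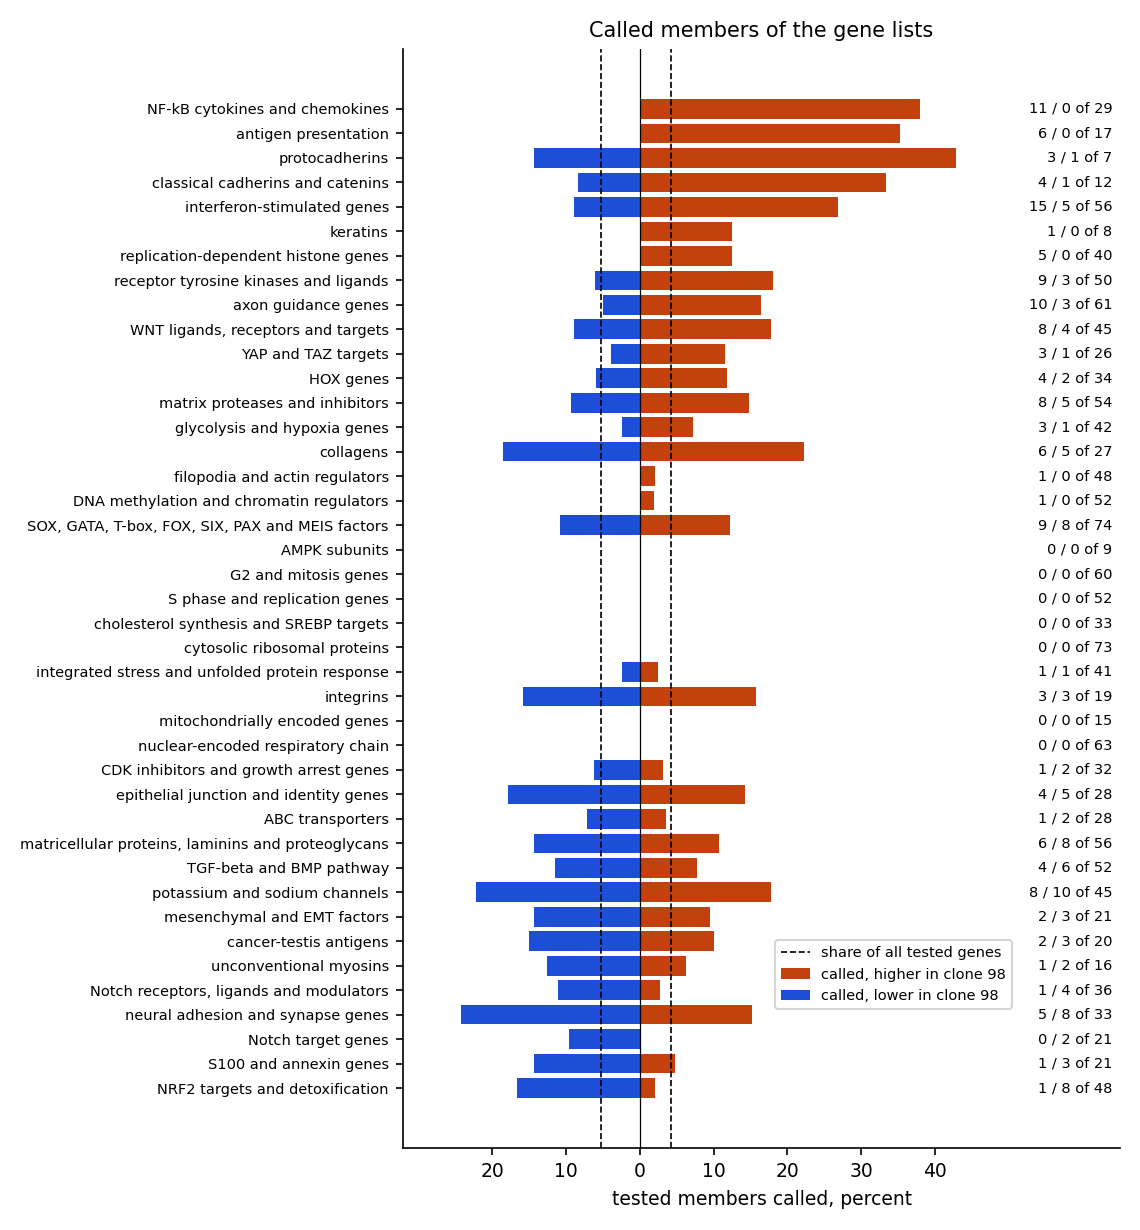
Percent of tested members called higher (orange, to the right) and lower (blue, to the left) in clone 98 for 41 gene lists, with the counts at the right as higher and lower of tested. Dashed lines mark 4.27% and 5.28%, the shares of all genes tested. NF-kB cytokines have 11 higher of 29, and NRF2 targets have 8 lower of 48.

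Genes that neighbour each other on a chromosome shifted together in several places. A running median over 31 neighbouring tested genes reached an absolute log2 value of 0.4 in 73 segments holding 1788 genes. Of these 18% were called, against 8.71% of the genes outside. The segments were picked by the same log2 values that enter the calls, which favours a higher share inside, so the shares test nothing. Segments held 1 to 391 genes, so their number is not a number of places with a shared shift. In some short ones the median of the members went against the direction of the running median, as in 6 genes of chromosome 7 (0.46 in a lower segment). The start of chromosome 5, from 92168 to 37753435, was higher in clone 98, with a median of 0.80 over 113 genes and 106 of them above 0. It holds MYO10, whose own value of 0.29 was under that median. The stretch from 40909497 to 50443345 on the same chromosome was lower, at -0.61 over 34 genes. OXCT1 and GHR lie in it, with fold changes far beyond that median. On chromosome 6, from 57908553 to 151479122, the median was -0.64 over 391 genes, with 342 below 0 and 73 called lower. CNR1 lies in this stretch, with a fold change far beyond its median. Chromosome 7 held lower stretches of 208, 161 and 86 genes, from 100706121 to 135172469, from 135183839 to 158981822 and from 87151423 to 99013241, with medians of -0.57, -0.58 and -0.48. On chromosome X a stretch of 89 genes from 64915807 to 93673578 had a median of -0.51. It contains SH3BGRL, HMGN5 and RPS6KA6, whose fold changes are far larger. Windows of 21 or 51 genes gave 1965 or 1638 genes in segments. DNA copy number was not measured, and its part in these shifts was not tested. Outside the segments 1560 genes were called, 760 higher and 800 lower in clone 98. These include 32 called genes of the 448 tested without a RefSeq position. Shared shifts under the cut of 0.4 were not counted as segments.

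**Figure D5:**
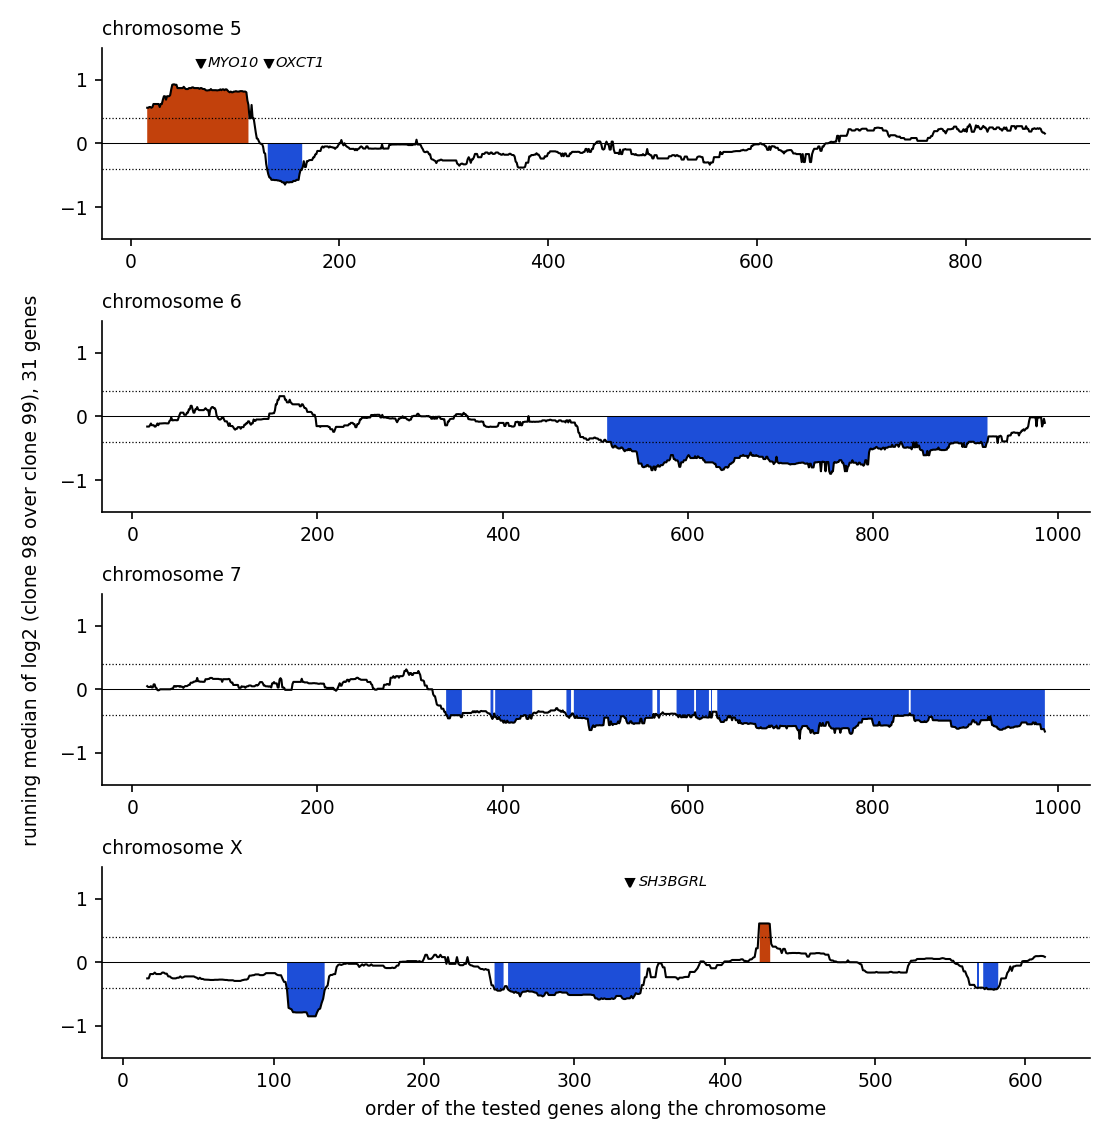
Running median of the log2 fold change of clone 98 over clone 99 in 31 neighbouring tested genes (vertical axis) along the order of genes on chromosomes 5, 6, 7 and X (horizontal axis), filled where it reached 0.4 in either direction (dotted lines), with 3 genes marked. The start of chromosome 5 is raised, the later parts of chromosomes 6 and 7 are lowered, and SH3BGRL sits in a lowered stretch of chromosome X.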

How the data were processed

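RNA was measured by sequencing in 10 H1299 lines with 4 cultures each, 40 libraries in all, of which the 8 of clones 98 and 99 were compared. Per the labels' protocols, total RNA was isolated on columns, libraries were made with a kit named for DNA, and sequencing was on a NovaSeq X-Plus. The submitters' processing notes name the build hg38, STAR 2.7.11b and HTSeq 2.0.5, with fastp 0.23.4, FastQC 0.12.0 and MultiQC 1.24.1. The strand setting, the annotation and the selection of RNA are not given in the sources used here. The deposited values are whole-number read counts per gene in 1 merged table of 59251 genes, not normalized by the authors.

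From these counts a quasi-likelihood model was fitted with edgeR 4.0.16 in R 4.3.3 (robust, 1 coefficient per line over all 40 libraries, 30 residual degrees of freedom, TMM factors). Genes kept by filterByExpr at a minimum count of 10 were tested (19703 genes holding 99.96% of counts). The contrast was clone 98 minus clone 99, p-values were adjusted by Benjamini-Hochberg over all genes tested, and errors of log2 values are standard errors. Calls required an adjusted p under 0.05 and a log2 fold change of 1 or more in size. The common biological coefficient of variation was 8.62%. Cultures of a clone differed by more than counting noise, with a chi-square per degree of freedom of 17.0 in clone 98 and 19.9 in clone 99. The procedure was tested on simulated data. Depth of 41721854 to 43683804 counts per library limits genes with no count to the floor of 3 counts over the 4 libraries, and intervals and floors cover counting error only.

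The named genes were MYO10, JAG1, CDH2, A2M-AS1, the 12 genes at each end of the fold changes (at least 5 CPM in the higher clone, cultures apart, non-coding and clone-based symbols left out), up to 4 called genes of at least 1 CPM from each of 46 gene lists, the 10 most abundant genes at 0 in one clone, and the 5 genes most like CDH2 and A2M-AS1 over the lines. Genes named outside this rule are identified as such or are list members and neighbours given as values. Some genes that the rule named are not reported here. The members and lists were chosen with earlier results of these data known. Positions and promoter windows came from RefSeq (GRCh38.p14), which placed 97.7% of the genes tested. Alternatives were other scalings, filters, models and fold rules, each culture left out in turn, and DESeq2 1.42.0.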

Additional observations from a re-analysis of the deposited data

Results flagged for a closer look

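In 247 groups of 4 cultures, a culture was marked where its gap to the nearest other, divided by the range of the 4, exceeded Dixon's 95% critical value. Chance marks about 1 in 20 such groups, and 14 were marked. In clone 98, replicate 4 was the marked culture for 5 genes and was the highest each time. It had 29.3 CPM of the kinase NUAK2 (6.51 to 7.38 in the others), 35.4 CPM of N4BP3 (16.6 to 19.8), 28.5 CPM of LRATD2 (21.1 to 21.7), 9.29 CPM of the antiproliferative gene BTG2 (5.32 to 5.88) and 1.05 CPM of annexin ANXA3 (0.515 to 0.568).

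Replicate 1 of clone 98 was low, at 3.18 CPM of AMOT (5.62 to 5.98 in the others) and 4.31 CPM of PDGFA (5.08 to 5.20). Replicate 2 of clone 98 had 2.60 CPM of integrin ITGB2 (1.47 or less). Replicate 3 of clone 98 had 48.8 CPM of netrin NTN1 (26.8 to 28.2) and 12.6 CPM of the kinase PDK3 (14.5 to 14.6). In clone 99, replicate 3 had 16.7 CPM of NTN1 (9.51 or less) and 0.212 CPM of BMP7 (0.462 to 0.480), replicate 4 had 68.0 CPM of laminin LAMB3, and replicate 1 had 8.99 CPM of CBX2 (7.11 to 7.36). NTN1 was thus high in replicate 3 of both clones, and it kept its call without either culture, at log2 values of 1.34 and 1.88.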

How the results depend on the processing

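The count of 1882 calls (842 higher and 1040 lower in clone 98) was 1866 to 1883 under RLE, upper quartile or library-total scaling, 2215 without a filter on low counts, 1430 with the 8 libraries alone and 1875 with DESeq2, which shared 1852. It was 1147 (496 and 651) with a minimum count of 50, 8762 (4130 and 4632) with no minimum of the fold change and 722 (313 and 409) with edgeR's test against a log2 value of 1. Without 1 culture it was 1766 to 2006 (812 to 918 higher, 954 to 1098 lower), and 1628 to 1744 of these were calls of the full fit. Same-numbered cultures of the clones deviated together at correlations of 0.003 to 0.19, and differently numbered ones at -0.23 to 0.19. Not every culture correlated best with its own number, so these values do not settle whether the numbers pair the cultures. A replicate block gave 1885 calls (848 and 1037). Among single genes 34 calls were lost and 6 gained over all alternatives, 2163 values kept theirs, and 0 changed sign. MYO10 stayed at log2 values of 0.24 to 0.37, and its adjusted p was 7e-06 with no filter on low counts, 0.012 with the 8 libraries alone and 0.047 with the replicate block. A minimum count of 50, which tests fewer genes, moved further list counts. Higher calls were 3 in ion channels, 6 in axon guidance genes, 2 each in cadherins, epithelial genes, HOX genes and the TGF-beta list, 1 in cancer-testis genes, and 0 in keratins, filopodia genes, myosins, Notch components, NRF2 targets, S100 genes, ABC transporters and endothelial markers, each of which had 1 in the full fit. Lower calls were 3 in collagens, 1 in neuroendocrine markers, and 0 in protocadherins and the stress response list. With the 8 libraries alone the matricellular list had 3 higher calls, matrix proteases 5, epithelial genes 2, the TGF-beta list 2, cancer-testis genes 1, and keratins, Notch components, S100 genes and ABC transporters 0, WNT genes had 2 lower, neuroendocrine markers 1 and protocadherins 0. The cause was not tested. Depth limits genes of a few counts, whose fold changes rest on single reads.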
